A study of Mus musculus with 9 samples.

Results

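The megakaryocyte and erythroid transcription factors Gata1, Gata2, Zfpm1, Gfi1b, Klf1, Nfe2 and Fli1 were followed through every probe set that the platform annotation assigns to these symbols, which gave 10 probe sets of the 45101 on the array, for 7 of the 18193 genes measured. Gata2, Zfpm1 and Fli1 had 2 probe sets each and the other genes 1. LSK cells of wild-type C57/Bl6 bone marrow, the fraction with Sca-1 and c-Kit but no lineage markers that holds blood stem cells and early progenitors, were kept for 3 days on a stromal feeder, and RNA was taken from the non-adherent cells. There were 3 arrays per group. In the first group, OP9-DL1+CompoundE, the feeder displayed the Notch ligand Delta-like 1 and the medium held 1 µM of Compound E, an inhibitor of γ-secretase, the protease that releases the active part of a ligand-bound Notch receptor. In the second, OP9-DL1, the same feeder was used with no inhibitor, and in the third, OP9-GFP, the control feeder. OP9 is a mouse bone marrow stromal line, and no label gives the number or age of the mice or says whether animals were pooled.

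These genes encode the factors that select and run the platelet and red cell programs. GATA2 acts in stem cells, early progenitors and mast cells, and is replaced by GATA1 as red cell precursors mature. FOG1, the product of Zfpm1, is the cofactor through which GATA1 acts on many of its genes, and GFI1B is a zinc finger repressor needed in both lineages. KLF1 drives the red cell program, including β-globin, whereas FLI1, an ETS factor, drives megakaryocyte genes and restrains the red cell program. NFE2 pairs with small MAF proteins and is needed for megakaryocytes to shed platelets. GATA1 and GATA2 also act in mast cells, and FLI1 and GATA2 in endothelium.

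All values are log2 values per probe set and array as deposited, and a difference of 1 is a 2-fold change. Values of up to 3.64, the highest reading among 27 probe sets for bacterial transcripts, are called background. Every one of the 10 probe sets read above this level on all 9 arrays. Nrarp, a Notch target, checked the labels, with means of 5.02 ± 0.23 on OP9-DL1+CompoundE, 9.30 ± 0.12 on OP9-DL1 and 6.61 ± 0.02 on OP9-GFP (SD, n = 3 each). Kit, the receptor that defines LSK cells with Sca-1, averaged 8.14, 10.22 and 8.94 in the same order of groups. Only 3 arrays per group limit the precision, and the labels do not state whether the arrays of a group stand for different mice or cultures, so each p-value measures only the spread among these arrays, possibly a technical one. A difference is called when its limma adjusted p is below 0.05.

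Of the 7 factors 6 were higher on the ligand feeder than on the control feeder, and 4 were below the control feeder when Compound E was present. On OP9-DL1 against OP9-GFP 8 of the 10 probe sets were called higher and none lower, where 12.1% of all probe sets were called higher. By the brightest probe set of each gene, 6 of 7 genes rose, with a median difference of 1.40, against 15.1% of all genes that rose, 16% that fell and a median of -0.02. With OP9-DL1+CompoundE against OP9-DL1, 9 of 10 probe sets and 6 of 7 genes fell, against 20% of all probe sets and 21% of all genes that fell (23.8% of genes rose), with medians of -2.09 for the 7 genes and 0.08 for all. With OP9-DL1+CompoundE against OP9-GFP, 5 of 10 probe sets and 4 of 7 genes fell and none rose, against 10.8% of all probe sets and 10% of all genes that fell (11.3% of genes rose). Arrays of both groups did not overlap for all 10 probe sets in the first comparison, for 9 in the second and for 6 in the third, in these directions, where 17.5%, 22.5% and 15.8% of all probe sets did not. The 3 comparisons share arrays in pairs, so they are not independent of each other. In such bulk RNA, more cells that express a gene and more of its RNA per cell cannot be told apart.

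**Figure D1:**
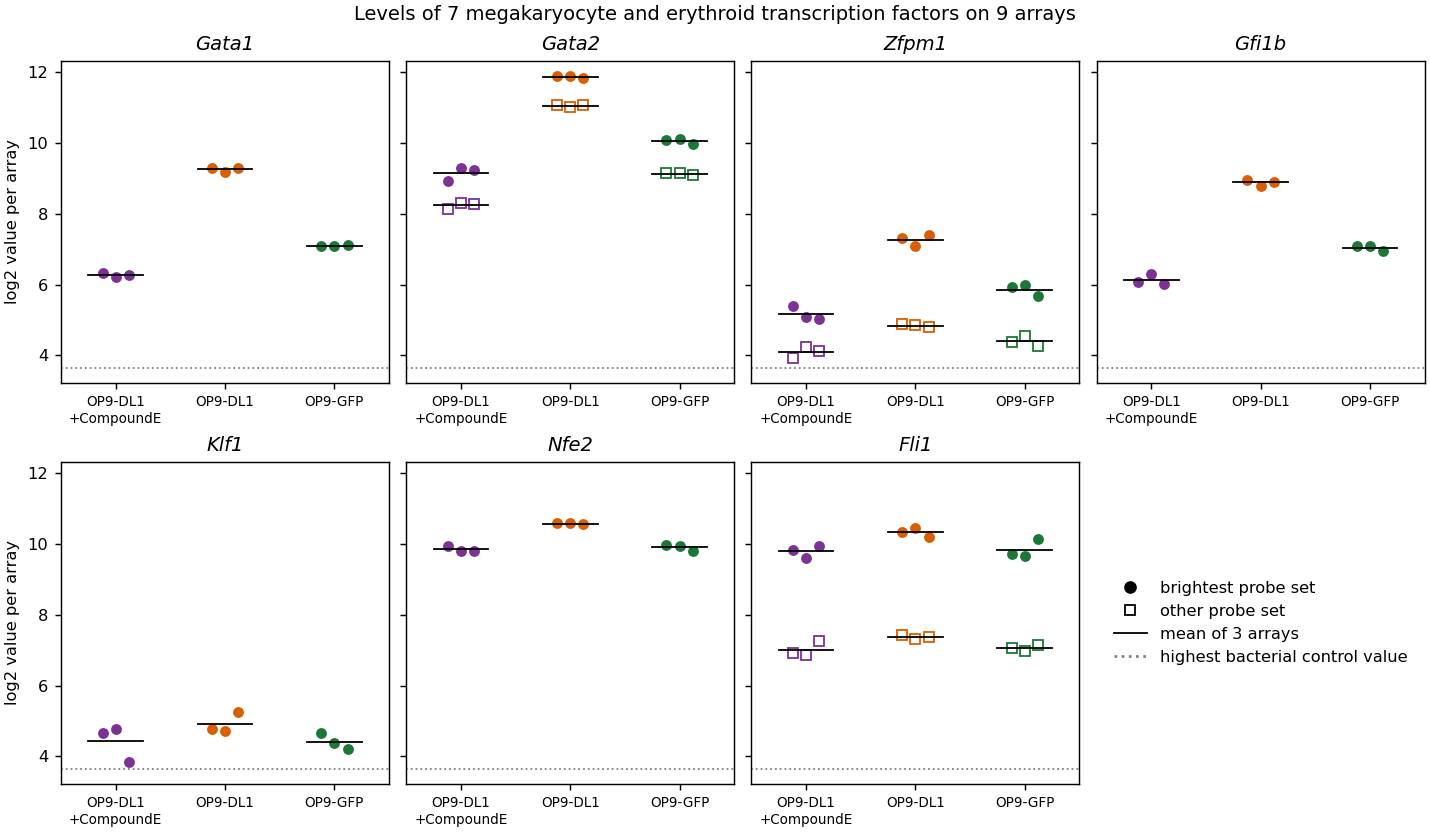
Log2 value of each probe set (vertical axis) on the 3 arrays of each group (horizontal axis), with filled points for the brightest probe set of a gene, open squares for its other probe set, a bar for the mean of 3 arrays and a dotted line at the highest bacterial control value, 3.64. The OP9-DL1 arrays stand above all others for Gata1, Gata2, Zfpm1 and Gfi1b, and the OP9-DL1+CompoundE arrays lie lowest, while Klf1 lies near the dotted line in every group.

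Gata1, the factor required for red cell and megakaryocyte maturation, read 6.31, 6.22 and 6.27 on the OP9-DL1+CompoundE arrays, 9.28, 9.18 and 9.28 on OP9-DL1, and 7.09, 7.09 and 7.11 on OP9-GFP. The 3 groups did not overlap, with OP9-DL1 highest and OP9-DL1+CompoundE lowest. Gata1 rose by 2.15 ± 0.08 (SE) on OP9-DL1 against OP9-GFP, which is 4.43-fold, with an adjusted p of 1.3e-11. Only 110 of the 18193 genes had a larger rise. Against OP9-DL1 it fell by 2.98 ± 0.08 (SE) with Compound E, 7.88-fold, with an adjusted p of 1.91e-13. Against OP9-GFP it fell by 0.83 ± 0.08 (SE), 1.78-fold, with an adjusted p of 3.54e-06. Among all genes, 226 lay further below OP9-GFP with the inhibitor than Gata1 did.

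Gata2, which acts earlier in the same lineages, was measured by 2 probe sets that moved alike. The brighter one read 8.92, 9.28 and 9.24 on OP9-DL1+CompoundE, 11.89, 11.88 and 11.83 on OP9-DL1, and 10.07, 10.11 and 9.96 on OP9-GFP. The other one read 8.12, 8.31 and 8.28, then 11.07, 10.9985 and 11.07, then 9.16, 9.15 and 9.08, in the same order of groups. In neither probe set did any groups overlap. The rise on OP9-DL1 against OP9-GFP was 1.82 ± 0.08 and 1.92 ± 0.06 (SE), with adjusted p of 7.3e-11 and 3.81e-12. The fall with Compound E against OP9-DL1 was -2.72 ± 0.08 and -2.81 ± 0.06 (SE), with adjusted p of 4.1e-13 and 3.63e-14. Against OP9-GFP, Gata2 was lower with the inhibitor by both probe sets (-0.90 ± 0.08 and -0.89 ± 0.06, SE), with adjusted p of 1.4e-06 and 1.5e-07. The 2 probe sets kept nearly the same distance on each array, between 0.75 and 0.98 over all 9.

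Zfpm1, the FOG1 gene, also had 2 probe sets, and these moved by different amounts. The brighter one read 5.40, 5.09 and 5.03 on OP9-DL1+CompoundE, 7.30, 7.09 and 7.39 on OP9-DL1, and 5.92, 5.97 and 5.68 on OP9-GFP. No groups overlapped, in the order seen for Gata1. It rose by 1.40 ± 0.14 (SE) on OP9-DL1 against OP9-GFP (adjusted p = 8.5e-07), fell by 2.09 ± 0.14 with Compound E against OP9-DL1 (adjusted p = 5.02e-09) and fell by 0.68 ± 0.14 with Compound E against OP9-GFP (adjusted p = 0.00228). The dimmer one read 3.93, 4.24 and 4.13, then 4.88, 4.86 and 4.79, then 4.37, 4.56 and 4.25, close above background, and its groups did not overlap either. Its differences were smaller, at 0.45 ± 0.14, -0.74 ± 0.14 and -0.29 ± 0.14 (SE) in the same 3 comparisons, with adjusted p of 0.0274, 0.000478 and 0.167. The gap between both probe sets was 0.85 to 1.47 on OP9-DL1+CompoundE, 2.23 to 2.60 on OP9-DL1 and 1.41 to 1.55 on OP9-GFP. Averaging both gave a rise of 0.92 on OP9-DL1, still called, and on the log2(linear value + 32) scale the fall against OP9-GFP was -0.40, still called. The call of the dimmer probe set for OP9-DL1 against OP9-GFP ended under quantile normalization (adjusted p = 0.0539) and without OP9-DL1 replicate 1 (0.0831), 2 (0.0772) or 3 (0.0502) or OP9-GFP replicate 1 (0.0822) or 3 (0.109), over a range of 0.01 to 0.109, and its value was 0.19 on the log2(linear value + 32) scale.

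Gfi1b, the repressor gene, read 6.06, 6.29 and 6.01 on OP9-DL1+CompoundE, 8.95, 8.79 and 8.89 on OP9-DL1, and 7.08, 7.08 and 6.95 on OP9-GFP. The groups again did not overlap, with OP9-DL1 highest and OP9-DL1+CompoundE lowest. It rose by 1.84 ± 0.10 (SE) on OP9-DL1 against OP9-GFP, 3.59-fold, with an adjusted p of 6.57e-10. With Compound E it fell by 2.76 ± 0.10 (SE) against OP9-DL1, 6.76-fold (adjusted p = 3.47e-12), and by 0.91 ± 0.10 (SE) against OP9-GFP, 1.88-fold (adjusted p = 9.84e-06). The values of OP9-GFP replicates 1 and 2 were equal.

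Promoter windows of 250 bases before to 50 bases after a start site, from RefSeq (GRCm38.p6), were in the table used for 5 of the 7 genes, with 2 windows for Gata2 and 1 each for Gata1, Zfpm1, Gfi1b and Klf1. They were searched on both strands for TGATAA or AGATAA, letters that GATA factors recognise. Of the 6 windows 2 held a match, those of Gfi1b and Klf1, where 18.6% of all 32851 windows of this length did. They are shown because one belongs to a gene that moved 3.59-fold and the other to one that was not called, with the matched letters in capitals. The Gfi1b window lies at chr2:28621933-28622232 on the minus strand, with the match at bases 131 to 136, and the Klf1 window at chr8:84901732-84902031 on the plus strand, with the match, on the opposite strand, at bases 171 to 176.
Gfi1b: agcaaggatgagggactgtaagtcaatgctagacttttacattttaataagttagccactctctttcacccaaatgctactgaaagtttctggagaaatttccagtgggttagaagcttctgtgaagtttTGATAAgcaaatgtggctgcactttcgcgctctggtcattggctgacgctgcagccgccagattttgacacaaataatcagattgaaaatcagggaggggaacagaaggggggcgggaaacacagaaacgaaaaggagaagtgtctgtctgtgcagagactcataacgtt
Klf1: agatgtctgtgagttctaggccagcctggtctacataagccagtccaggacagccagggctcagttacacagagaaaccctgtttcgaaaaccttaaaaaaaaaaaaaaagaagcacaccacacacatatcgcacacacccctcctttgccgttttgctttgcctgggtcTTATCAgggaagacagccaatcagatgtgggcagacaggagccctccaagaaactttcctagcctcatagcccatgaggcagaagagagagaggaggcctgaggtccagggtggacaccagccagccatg

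The same windows were searched on both strands for TGGGAA, letters recognised by RBPJ, the DNA-binding partner of the active Notch fragment. Only the Zfpm1 window held them, at bases 112 to 117 and 147 to 152, where 25.6% of all windows had a match. It lies at chr8:122281891-122282190 on the plus strand and is shown with both matches in capitals. The last match overlaps a GGGTG, which reads as CACCC, letters that KLF factors recognise, on the opposite strand. CACCC, on either strand, was in 5 of the 6 windows and in 57.5% of all windows. A match is a description of these letters and not a measured binding site.
Zfpm1: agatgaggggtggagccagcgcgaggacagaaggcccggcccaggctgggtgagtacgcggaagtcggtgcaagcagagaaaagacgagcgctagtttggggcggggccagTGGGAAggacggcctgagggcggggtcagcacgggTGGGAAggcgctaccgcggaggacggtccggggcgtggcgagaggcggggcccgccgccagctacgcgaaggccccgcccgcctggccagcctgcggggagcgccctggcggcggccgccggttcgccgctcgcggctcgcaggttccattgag

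Klf1, the red cell factor, stayed close to background in every group. It read 4.66, 4.76 and 3.85 on OP9-DL1+CompoundE, 4.77, 4.71 and 5.24 on OP9-DL1, and 4.66, 4.39 and 4.21 on OP9-GFP. The OP9-DL1 arrays lay above all OP9-GFP arrays, by 0.06 at the narrowest, and overlapped those with Compound E. The difference was 0.49 (95% interval 0.02 to 0.96, adjusted p = 0.137) on OP9-DL1 against OP9-GFP, -0.48 (-0.96 to -0.01, adjusted p = 0.0995) with Compound E against OP9-DL1, and 0.01 (-0.47 to 0.48, adjusted p = 0.989) with Compound E against OP9-GFP. None passed the test. Single arrays changed this: without OP9-DL1+CompoundE replicate 3, its lowest array, the first difference passed (adjusted p = 0.0473, of a range of 0.0473 to 0.438), and without OP9-DL1+CompoundE replicate 2 the middle one did (0.0428, of a range of 0.0428 to 0.44).

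Nfe2, the factor of platelet release, was bright in every group and moved less than the GATA genes. It read 9.93, 9.80 and 9.81 on OP9-DL1+CompoundE, 10.58, 10.58 and 10.56 on OP9-DL1, and 9.97, 9.95 and 9.79 on OP9-GFP. The OP9-DL1 arrays stood apart and the other 2 groups overlapped. Nfe2 rose by 0.67 ± 0.06 (SE) on OP9-DL1 against OP9-GFP, 1.59-fold, with an adjusted p of 3.12e-07, and fell by 0.72 ± 0.06 (SE) with Compound E against OP9-DL1, 1.65-fold, with an adjusted p of 7.66e-08. With Compound E against OP9-GFP the difference was -0.06 (95% interval -0.18 to 0.07, adjusted p = 0.573), an interval that lies wholly above those of Gata1, Gata2 and Gfi1b in the same comparison.

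Fli1, the ETS factor of megakaryocytes, had 2 probe sets with small differences. The brighter one read 9.84, 9.60 and 9.93 on OP9-DL1+CompoundE, 10.33, 10.46 and 10.18 on OP9-DL1, and 9.71, 9.65 and 10.15 on OP9-GFP. The OP9-DL1 arrays were highest, but OP9-GFP replicate 3 came within 0.03 of them. It rose by 0.49 ± 0.12 (SE) on OP9-DL1 against OP9-GFP, 1.40-fold (adjusted p = 0.00462), and fell by 0.53 ± 0.12 (SE) with Compound E against OP9-DL1 (adjusted p = 0.0015). With Compound E against OP9-GFP it differed by -0.05 (95% interval -0.29 to 0.20, adjusted p = 0.827), and the groups overlapped. The dimmer one read 6.91, 6.85 and 7.27, then 7.43, 7.31 and 7.38, then 7.07, 6.99 and 7.15, and gave 0.31 ± 0.11, -0.36 ± 0.11 and -0.06 ± 0.11 (SE), with adjusted p of 0.0591, 0.0173 and 0.779. The first of these passed under 5 of 16 alternatives, whose adjusted p ran from 0.0167 to 0.194, among them without OP9-DL1+CompoundE replicate 2 (0.0403) or 3 (0.0184). The call of the middle one ended with arrays centred on their medians (-0.23, adjusted p = 0.095) and without OP9-DL1 replicate 1 (0.0675), OP9-DL1+CompoundE replicate 1 (0.0651) or 2 (0.072), over a range of 0.00115 to 0.095.

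**Figure D2:**
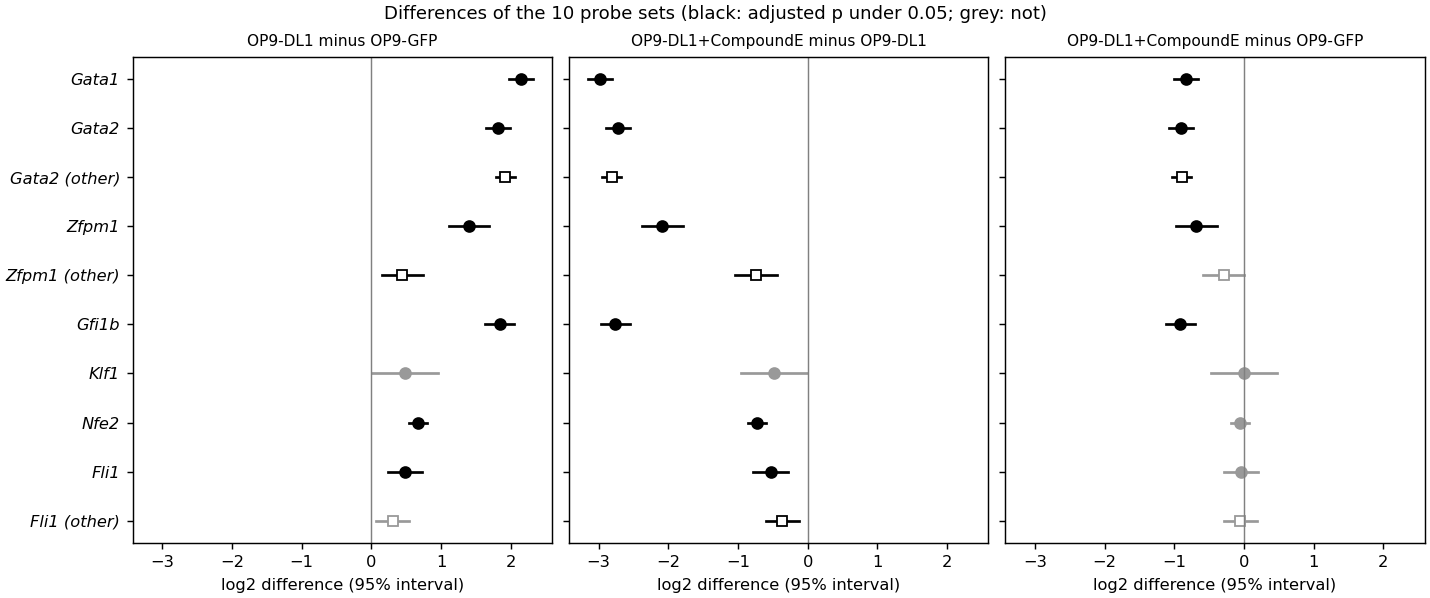
Log2 difference of each of the 10 probe sets (horizontal axis) with its 95% interval, in 3 panels for OP9-DL1 minus OP9-GFP, OP9-DL1+CompoundE minus OP9-DL1 and OP9-DL1+CompoundE minus OP9-GFP, with circles for the brightest probe set of a gene, squares for the other, black where the adjusted p is below 0.05 and grey elsewhere. Gata1, Gata2 and Gfi1b lie between 1.82 and 2.15 in the left panel, between -2.98 and -2.72 in the middle panel and between -0.91 and -0.83 in the right panel, apart from Nfe2, Fli1 and Klf1.

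The differences were of unequal size among the 7 genes. On OP9-DL1 against OP9-GFP the 95% intervals of the brightest probe sets ran from 1.97 to 2.32 for Gata1, 1.65 to 1.99 for Gata2, 1.64 to 2.05 for Gfi1b and 1.11 to 1.69 for Zfpm1. Those of Nfe2 (0.54 to 0.80), Fli1 (0.24 to 0.73) and Klf1 (0.02 to 0.96) all lay below these 4. Compound E against OP9-DL1 gave the same division, with intervals of -3.15 to -2.81 for Gata1, -2.89 to -2.55 for Gata2, -2.96 to -2.55 for Gfi1b and -2.38 to -1.79 for Zfpm1. There, Nfe2 had -0.85 to -0.60, Fli1 -0.78 to -0.29 and Klf1 -0.96 to -0.01. For Zfpm1 this holds only of the brighter probe set: the intervals of the dimmer one, 0.15 to 0.75 and -1.04 to -0.44 in these comparisons, overlapped those of Nfe2, Fli1 and Klf1.

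Partner factors of these proteins were counted next, from a list of 20 genes. On OP9-DL1 against OP9-GFP 11 rose and 1 fell, with a median of 0.27, where 15.1% of all genes rose and 16% fell. Against OP9-DL1, 11 fell and 2 rose with Compound E, with a median of -0.33, where 21% of all genes fell and 23.8% rose. Tal1, which binds DNA beside GATA1, rose by 1.32 and fell by 1.99 in these comparisons, with means of 7.97 on OP9-DL1+CompoundE, 9.96 on OP9-DL1 and 8.64 on OP9-GFP. Its bridging partner gene Lmo2 rose by 0.41 and fell by 0.69, while Ldb1, the other bridge, was at 0.17 and -0.05 and was not called. Meis1 (1.66 and -2.91), Erg (0.91 and -1.54), an ETS relative of Fli1, Etv6 (0.28 and -0.42), Cbfa2t3 (0.39 and -1.05), a corepressor of the TAL1 complex, and Runx1 (0.26 and -0.37) were called both ways. Lyl1, the nearest relative of Tal1, went the other way, at -0.54 and 0.77. Of the small MAF genes that pair with Nfe2, Maff was called in both comparisons (1.08 and -0.95), Mafk in the first (0.28 and -0.12) and Mafg in the second (-0.17 and 0.36).

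Of 18 relatives of the 7 genes 4 rose and 3 fell on OP9-DL1 against OP9-GFP, with a median of -0.04, shares near those of all genes (15.1% rose and 16% fell). Ets1, an ETS factor of lymphocytes, rose by 1.94, Gata3, the T cell GATA factor and a Notch target, by 1.64 to a mean of 5.05, Gata6 by 0.66 and Ets2 by 0.42. Gata6 was near background, with means of 3.65 on OP9-DL1+CompoundE, 4.19 on OP9-DL1 and 3.53 on OP9-GFP. Gata3 was at background on average on OP9-DL1+CompoundE (3.51) and OP9-GFP (3.41). Klf4 (-0.70), Bach2 (-0.60) and Bach1 (-0.24), whose protein competes with NFE2 for small MAF partners, fell. Gfi1, the myeloid and lymphoid counterpart of Gfi1b, read 7.90, 7.81 and 7.91 on average on OP9-DL1+CompoundE, OP9-DL1 and OP9-GFP and was not called in any comparison. Zfpm2, the FOG2 gene, and Gata4 were at background on all arrays.

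Corepressors that GFI1B and FOG1 recruit were counted from a list of 17 genes. Of these 5 rose and 1 fell on OP9-DL1 against OP9-GFP, with a median of 0.09, where 15.1% of all genes rose and 16% fell, and the rises were those of Rcor2 (1.15), Mta3 (0.57), Kdm1a (0.44), the histone demethylase that GFI1B binds, Hdac2 (0.37) and Mta1 (0.30). With Compound E against OP9-DL1 11 fell and 1 rose, with a median of -0.21, where 21% of all genes fell and 23.8% rose, and 6 fell and 1 rose with arrays centred on their medians. Among the falls were Rcor2 (-1.13), Hdac2 (-0.51) and Kdm1a (-0.37). Of 8 myeloid factors, some of which oppose GATA1, 7 fell and 1 rose on OP9-DL1 against OP9-GFP, with a median of -0.86. Spi1, whose protein PU.1 and GATA1 inhibit each other, fell by 0.92, with means of 10.19 on OP9-DL1+CompoundE, 8.81 on OP9-DL1 and 9.73 on OP9-GFP. Irf4 (-3.53), Mitf (-1.56), Irf8 (-1.52), Cebpd (-0.79), Cebpb (-0.78) and Cebpa (-0.29) fell too, and Jun rose (0.48). With Compound E against OP9-DL1 6 of the 8 rose, among them Irf4 (2.74), Cebpb (1.83) and Spi1 (1.38), Jun fell (-0.32) and Cebpa was not called (-0.09). Against OP9-GFP, 4 of the 8 rose and 3 fell with Compound E, where 11.3% of all genes rose and 10% fell. The rises were those of Cebpb (1.04), Cebpd (0.68), Spi1 (0.46) and Jun (0.16), and the falls those of Irf4 (-0.79), Cebpa (-0.37) and Irf8 (-0.28).

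Target genes were counted by lineage, from lists for megakaryocytes and for red cells. Of 22 megakaryocyte targets measured 20 rose and none fell on OP9-DL1 against OP9-GFP, with a median of 1.48, where 15.1% of all genes rose. With Compound E against OP9-DL1 20 fell and 1 rose (median -2.09), where 21% of all genes fell and 23.8% rose. Against OP9-GFP 17 fell and 1 rose with Compound E (median -0.50), where 10% of all genes fell and 11.3% rose. Itga2b, the integrin of platelets and a GATA1 and FLI1 target, averaged 7.75 on OP9-DL1+CompoundE, 10.31 on OP9-DL1 and 8.49 on OP9-GFP, with differences of 1.82, -2.56 and -0.74 in the 3 comparisons. Tubb1, the platelet β-tubulin and an NFE2 target, differed by 2.70, -2.08 and 0.62, and was the only gene of the list called higher with Compound E against OP9-GFP. Slc35d3 (3.10), Clec1b (1.75), Treml1 (1.61), Itgb3 (1.20), Tbxas1 (1.18), a thromboxane synthase and NFE2 target, and Pf4 (1.06) were among the other rises on OP9-DL1. Thbs1 (-0.12) and Nbeal2 (0.15) were not called.

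Of 29 erythroid targets measured 13 rose and 2 fell on OP9-DL1 against OP9-GFP, with a median of 0.21, and 6 were at background on all arrays. Of all genes 15.1% rose and 16% fell in that comparison. With Compound E against OP9-DL1 12 fell and 2 rose (median -0.19), where 21% of all genes fell and 23.8% rose. Against OP9-GFP 8 fell and 1 rose with Compound E (median -0.07), where 10% of all genes fell and 11.3% rose. Hemgn, a GATA1 target, averaged 6.55 on OP9-DL1+CompoundE, 10.40 on OP9-DL1 and 8.29 on OP9-GFP. Samd14 (1.98), the carbonic anhydrase gene Car2 (1.68), the erythropoietin receptor gene Epor (1.59) and Bcl11a (1.00) rose too on OP9-DL1, while E2f2 (-1.63) and the heme synthesis gene Fech (-0.35) fell. Red cell membrane and enzyme genes were among the rises, with Aqp1, a water channel gene, at 1.20, Kel, of the Kell antigen, at 0.95, Car1, another carbonic anhydrase gene, at 0.68, Sptb, the β-spectrin gene, at 0.62 and Xk at 0.50. Of these, Aqp1 averaged 4.78 on OP9-DL1+CompoundE, 7.01 on OP9-DL1 and 5.81 on OP9-GFP, while Kel, at 2.66, 3.78 and 2.83, was near background. Sptb (4.61, 4.98 and 4.36) and Xk (4.73, 5.04 and 4.53) lay at a level like that of Klf1. Neither was called with Compound E against OP9-DL1. Other membrane genes, Ank1 (-0.11), Add2 (-0.08), Rhd (0.01) and Ermap (0.21), were not called on OP9-DL1 against OP9-GFP. The 6 genes at background were Alas2, Epb42, Hba-a1, Rhag, Trim10 and Tspo2. Hba-a1, an α-globin gene, averaged 2.89, 2.73 and 2.79 and Alas2, of heme synthesis, 2.76, 2.78 and 2.90 on OP9-DL1+CompoundE, OP9-DL1 and OP9-GFP. Probe sets that name several genes were left out, so any shared by α-globin genes are not counted here. The β-globin genes Hbb-b1 and Hbb-bt were among the 35 listed but had no probe set assigned to their symbol alone. The level of globin RNA is thus not settled by these values. Slc4a1, the band 3 anion exchanger, averaged 3.68, 3.60 and 3.76, just around background, and was not called.

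**Figure D3:**
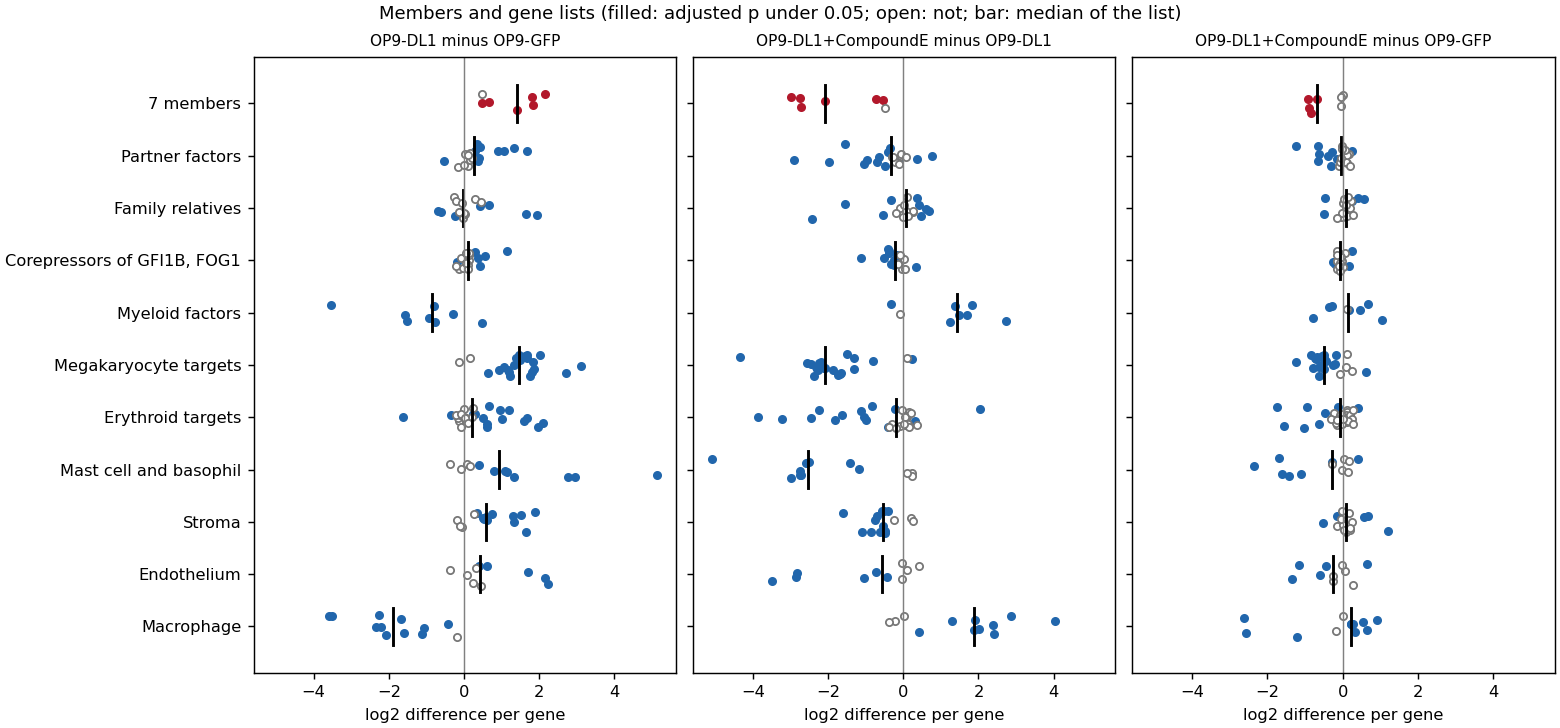
Log2 difference per gene (horizontal axis) for the 7 members and 10 gene lists (rows), in 3 panels for OP9-DL1 minus OP9-GFP, OP9-DL1+CompoundE minus OP9-DL1 and OP9-DL1+CompoundE minus OP9-GFP, with filled points for genes with an adjusted p below 0.05, open points for the others and a bar at the median of the row. The median of the megakaryocyte targets lies on the same side as that of the 7 members in each panel (1.48, -2.09 and -0.50 for the targets). So do the medians of the partner factors, corepressors, erythroid targets, mast cell and basophil markers and endothelial markers. In the right panel those of the partner factors (-0.06), corepressors (-0.07) and erythroid targets (-0.07) are small against -0.68 for the 7 members. The medians of the myeloid factors and the macrophage markers lie on the other side in each panel. Those of the relatives (-0.04, 0.08 and 0.09) lie near the medians of all genes (-0.02, 0.08 and 0.05). The stromal markers have a median on the other side from the 7 members in the right panel only.

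For the 4 genes whose group means span at least 1, the genes with the most similar profile were sought by the root mean square distance of the 9 values, each centred on its own gene's mean, over 9 arrays in 3 separate groups. Rab37 (0.06), Pheta2 (0.08) and Mfsd2b (0.08) were nearest to Gata1. Cavin2 (0.10), Gfi1b (0.10) and Mmrn1 (0.12), a platelet and endothelial protein gene, were nearest to Gata2. Adgrg1 (0.09), Gata2 (0.10) and Itga2b (0.10) were nearest to Gfi1b, so Gata2 and Gfi1b were each among the nearest genes of the other. Map7 (0.10), Tal1 (0.12) and Dpp4 (0.13) were nearest to Zfpm1. Gfi1b ranked 17 and Gata2 23 among the genes nearest to Gata1, Zfpm1 154, Nfe2 1145, Fli1 1732 and Klf1 2139.

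**Figure D4:**
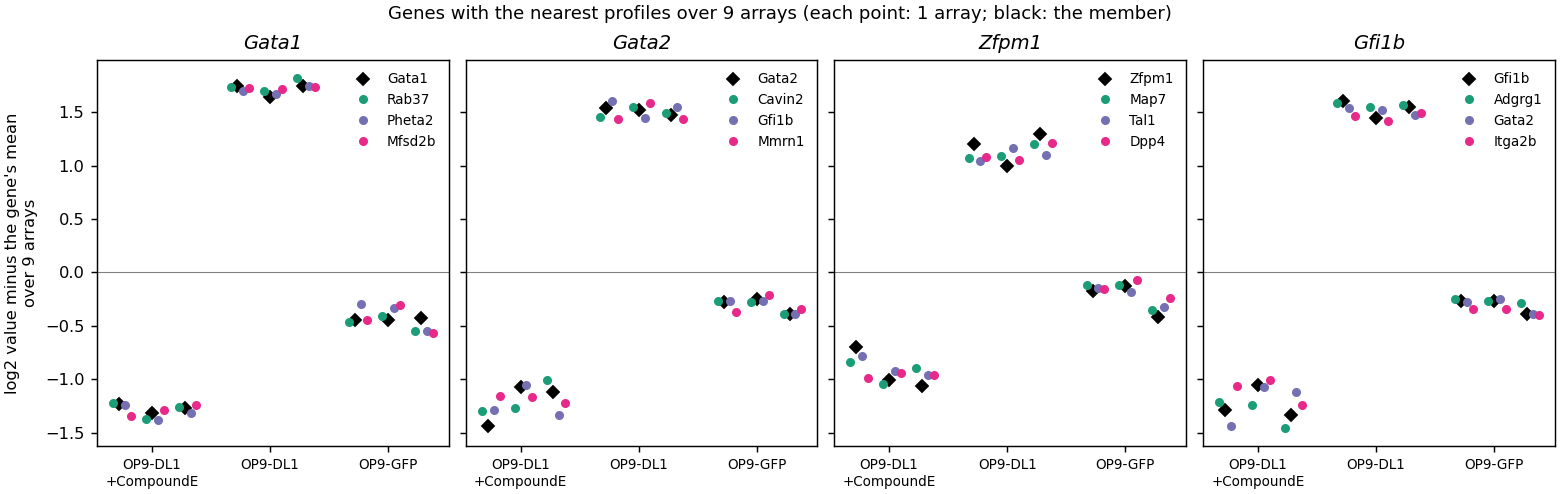
Log2 value minus the gene's own mean over 9 arrays (vertical axis) on each array of the 3 groups (horizontal axis), for Gata1, Gata2, Zfpm1 and Gfi1b (black diamonds) and the 3 genes nearest to each (coloured circles). The nearest genes follow each member to within a root mean square distance of 0.06 to 0.13, with the OP9-DL1 arrays on top.

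Markers of other cells that express some of these factors moved as well, and their part in the results was not tested. Of all genes, 15.1% rose and 16% fell on OP9-DL1 against OP9-GFP. With Compound E, 23.8% of all genes rose and 21% fell against OP9-DL1, and 11.3% rose and 10% fell against OP9-GFP. Of 12 mast cell and basophil markers 8 rose and none fell on OP9-DL1 against OP9-GFP, 9 fell with Compound E against OP9-DL1, and 6 fell against OP9-GFP, where Tpsab1, at background on all arrays, was called higher. The log2 of their summed level was 10.89 to 10.96 on OP9-DL1+CompoundE, 12.49 to 12.53 on OP9-DL1 and 11.88 to 11.93 on OP9-GFP. This order of groups matches that of Gata1 and Gata2, and the endothelial and Notch response sums had it too. The eosinophil sum also had it, although only Siglecf rose on OP9-DL1 against OP9-GFP while Prg2 and Epx fell. That of the stem and progenitor markers had it as well, but Gata2 itself is among its genes. Cpa3 (6.72, 9.47 and 8.14) and Ms4a2 (6.23, 8.93 and 7.85) were well above background in these groups, in the same order. Mcpt8 (10.11, 11.30 and 11.21) was not called on OP9-DL1 against OP9-GFP. Mcpt1 (2.56, 7.64 and 2.52), Mcpt2 (3.00, 5.59 and 2.84) and Mcpt4 (2.87, 5.86 and 2.90) were at background on average on OP9-DL1+CompoundE and OP9-GFP. Of 10 endothelial markers 5 rose and none fell on OP9-DL1 against OP9-GFP, or 7 and 1 when 1 probe set per gene was fitted. The endothelial sum was 8.77 to 8.94, 10.59 to 10.75 and 9.24 to 9.28 in the same order of groups, with Emcn at background on all arrays and Cdh5 at no more than 3.87. Tek and Esam, called in this list, are also expressed by blood progenitors.

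The next lists can be set against all genes, of which 15.1% rose and 16% fell on OP9-DL1 against OP9-GFP. With Compound E, 23.8% of all genes rose and 21% fell against OP9-DL1, and 11.3% rose and 10% fell against OP9-GFP. Of 15 stromal markers 11 rose on OP9-DL1 against OP9-GFP and 12 fell with Compound E against OP9-DL1, with none the other way. Their sum was 13.91 to 13.92 on OP9-DL1+CompoundE, 14.48 to 14.52 on OP9-DL1 and 13.89 to 13.93 on OP9-GFP. The ranges of OP9-DL1+CompoundE and OP9-GFP overlapped, and 3 of the 15 rose and 2 fell between these groups. Sparc (11.53, 12.05 and 11.43) and Cxcl12 (12.08, 12.56 and 12.21) were bright, whereas Dcn and Lum were at background on all arrays. Macrophage markers ran opposite, with 11 of 12 lower on OP9-DL1 against OP9-GFP and 9 higher with Compound E against OP9-DL1, and sums of 14.85 to 14.88, 13.59 to 13.65 and 14.70 to 14.75, of which C1qa was at background on all arrays. Of 6 eosinophil markers, another lineage of GATA1, 1 rose (Siglecf, 1.66) and 2 fell (Prg2, -0.45, and Epx, -0.59), the sums being 8.34 to 8.41, 9.64 to 9.71 and 8.9975 to 9.21, with Ccr3 at background on all arrays. Of 10 stem and progenitor markers, Gata2 among them, 7 rose and 3 fell on OP9-DL1 against OP9-GFP and 8 fell and 1 rose with Compound E against OP9-DL1, with sums of 11.75 to 11.88, 13.06 to 13.15 and 12.41 to 12.45. Gata2 is also 1 of the 7 genes followed, so these counts and sums hold its values (means of 9.15, 11.87 and 10.05) again. The 5 Notch response genes all rose on OP9-DL1 and fell with Compound E, and against OP9-GFP only Nrarp, of these 5, was called with Compound E, at -1.58.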

How the data were processed

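The values are the log2 values the authors deposited. The submitters' processing notes list MAS5 and GCRMA 2.4.1 without saying which step each did. The platform annotation named 34945 of 45101 probe sets by 1 symbol, 932 by several and 9160 by none, and 64 were array controls. Symbols were updated through the Entrez ID for 34741, with RefSeq names of GRCm38.p6. Where 1 value per gene is given, it is that of the brightest probe set, by the mean over 9 arrays.

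All 45037 other probe sets were fitted with limma 3.58.1 in R 4.3.3 (lmFit, eBayes with an intensity trend) over all 9 arrays with no covariate, with the Benjamini-Hochberg adjustment taken over all of them and a threshold of 0.05. The procedure was tested on simulated data. The fit took all probe sets, not 1 per gene, because the genes are followed by all their probe sets.

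The 7 genes, the gene lists and the rule for named genes were chosen with earlier results of these data known. The rule named every probe set of the 7 genes, from the longer lists up to 5 genes with the smallest p and up to 3 called the other way, textbook targets and partners, and the 3 most similar genes. Of the shorter marker lists, counts and summed levels are given, with few genes named. Replicate numbers were not treated as pairs. Over 9 pairs of same-numbered arrays the correlation of deviations from the group mean ran from -0.09 to 0.10. Array medians ran from 4.78 to 4.94. Alternatives were the log2(linear value + 32) scale, quantile normalization, median centring, 1 probe set or the mean per gene, a brightness filter, no intensity trend, only the 6 arrays compared, a replicate block, a 2-fold minimum and leaving out each array.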

Additional observations from a re-analysis of the deposited data

How the results depend on the processing

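Of 516 values of the 10 probe sets under the alternatives, 499 kept their direction and their side of the threshold wherever the difference was called, 10 lost the call and 7 gained it, and all 17 concern Klf1 and the dimmer probe sets of Zfpm1 and Fli1. Called differences of Gata1, Gata2, Gfi1b, Nfe2 and the brighter probe sets of Zfpm1 and Fli1 kept direction and call under every alternative fit. With a 2-fold minimum added, the called probe sets were 5 of 10 on OP9-DL1 against OP9-GFP, 5 of 10 with Compound E against OP9-DL1 and 0 of 10 with Compound E against OP9-GFP, where 0 of 7 genes were left. The share of all probe sets that passed this minimum was not counted, so these counts have no background to be set against. When each array was left out in turn, the called probe sets numbered 7 to 10, 8 to 9 and 5, and the called genes 6 to 7, 6 to 7 and 4. Of all 45037 probe sets 9113 to 11949, 15092 to 17509 and 6107 to 9132 were then called, in either direction. With the replicate number as a block the counts were 8, 9 and 5 probe sets and 6, 6 and 4 genes, and no pair of same-numbered arrays deviated together by a correlation above 0.1. This block called 10825, 17217 and 8103 of all 45037 probe sets, in either direction. Centring each array on its median moved the median of all probe sets, in Compound E against OP9-DL1, to 0.19 from 0.06. Fitting 1 probe set per gene called 5934, 8500 and 4135 of 18193 genes, and averaging the probe sets per gene 5700, 8383 and 4023. The main fit called 11192, 17597 and 8552 of 45037 probe sets. The counts per gene were smaller since fewer features were tested, but they were larger shares of the features tested. Counts over the gene lists under each setting were added after seeing the data. Among probe sets above the median brightness, 5 of 6 mast cell and basophil markers and 3 of 3 Notch response genes were called on OP9-DL1 against OP9-GFP. Relatives called with Compound E against OP9-GFP were 3 rather than 5 without OP9-GFP replicate 1 or OP9-DL1+CompoundE replicate 1. The 4 corepressors called there became 1 with no intensity trend or without OP9-DL1+CompoundE replicate 2, and 2 without OP9-GFP replicate 1, 2 or 3. Values near background, as for Klf1, limit what can be said of them.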

Other observations

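The deposited Klf1 value was 4.66 on both OP9-DL1+CompoundE replicate 1 and OP9-GFP replicate 1, equal to 4 decimals, and the Gfi1b value was 7.08 on OP9-GFP replicates 1 and 2 to the same precision. The Gata1 values of OP9-DL1 replicates 1 and 3 were 9.2787 and 9.2786.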
